A study of Mus musculus with 40 samples.

Results

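Ccnc KO and Cdk8 KO mouse embryonic stem cells (mESCs) were compared with each other, over 12 of the 16 RNA-seq libraries of the series, the other 4 being WT. D1, G2 and H5 are the clones of the Ccnc KO, and B9, H4 and C8 those of the Cdk8 KO. From each clone, 1 library was made after 4 h in DMSO and 1 after 4 h in 900 nM AZD6738, the ATR kinase inhibitor (ATRi), and all were used. Each clone was grown from a single cell after CRISPR-Cas9 cutting with 1 guide per gene in Cas9-expressing mESCs, so a clone is the unit of replication (n = 3 for each genotype). All cells were cultured with serum and LIF on gelatin. The Ccnc KO libraries were sequenced in one multiplex and the Cdk8 KO libraries in another, and the 4 WT libraries, by their labels, were read in both. The difference of these WT reads between multiplexes, gene by gene, was taken as the run offset and subtracted. Ratios of both genotypes to WT therefore share their WT libraries. The offset came from 6 reads of 3 WT libraries (both WT replicates under DMSO and WT replicate 1 under ATRi).

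Cyclin C and the kinase CDK8 form a pair within the CDK8 kinase module, a detachable part of the Mediator complex that carries signals from transcription factors to RNA polymerase II. MED12 and MED13 complete the module, and MED12 activates the kinase through cyclin C. CDK19 is a close paralogue of CDK8 that also binds cyclin C. Loss of cyclin C therefore takes the partner from both kinases, whereas loss of CDK8 leaves CDK19. The paper also reports reduced cyclin C protein in its Cdk8 KO cells, which the mRNA levels given here do not measure.

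The guides are shown because they say where each gene was cut. They are written 5′ to 3′ in the letters of GRCm38, with the adjacent PAM in capitals.
Ccnc guide: ctaaagcgatcatgaacggaGGG
Cdk8 guide: aatatttcactgtcgacaagAGG
The Ccnc guide matched chr4:21743295-21743314 on the minus strand, in exon 9 of 13 of transcript Ccnc-201, and its cut lies in the coding sequence at codon 194 of 282. The Cdk8 guide matched chr5:146292673-146292692 on the plus strand, in exon 7 of 13 of Cdk8-201, at codon 238 of 464.

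The knockout libraries held between 30899823 and 67274049 counted reads. Levels are counts scaled to library size (CPM) after TMM normalization, printed as read in their own multiplex, and each log2 fold change is Ccnc KO minus Cdk8 KO after the run offset. Between multiplexes, 684 of 16772 genes (4.08%) differed in the same WT libraries at an adjusted p under 0.05, 457 of them higher in the Cdk8 multiplex (2.72%) and 16 by more than 2-fold, and 95% of the run offsets lay between -0.38 and 0.48. Summed over 9 mESC markers, the level was 4390 to 4910 CPM in Ccnc KO, 3650 to 4710 CPM in Cdk8 KO and 4850 to 5320 CPM in WT libraries. Clone H4 of the Cdk8 KO stood apart from every other clone, and leaving it out changed many of the calls made by DESeq2 and over single libraries, as given beside them.

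The direct comparison found 1 gene of 18647 tested (0.00536%) at an adjusted p under 0.05, and it was the targeted gene Ccnc (edgeR's quasi-likelihood test on clone sums). At an unadjusted p under 0.05 there were 1745 genes (9.36%), of which 947 were lower in Ccnc KO (5.08%) and 798 higher (4.28%). Without H4 the shares were 4.83% lower and 4.44% higher. The 3 clones of one genotype did not overlap those of the other for 3172 genes (17.0%), of which 1690 were lower in Ccnc KO (9.06%) and 1482 higher (7.95%). The 95% intervals give a range for the difference at each gene, and are not adjusted for the number of genes. Among the 9090 genes above 10 CPM, the 95% interval of the difference lay within 2-fold for 8976 genes (98.7%) and within 1.5-fold for 8612 (94.7%). Of all genes tested, 15094 (80.9%) had an interval within 2-fold and 11283 (60.5%) within 1.5-fold, and for the remaining genes the interval reached past that fold. The central 95% of log2 fold changes ran from -0.28 to 0.23 above 10 CPM and from -0.78 to 0.64 over all genes tested. These standard errors come from the spread between clones and treat the run offset as known. A joint fit with the WT libraries, which carries the error of the offset and counts the reads of a WT library in each multiplex as separate, also called Ccnc alone but had 410 genes (2.20%) at an unadjusted p under 0.05. In it the interval lay within 2-fold for 98.4% and within 1.5-fold for 91.6% of the genes above 10 CPM, and for 69.1% and 51.1% of all genes tested.

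**Figure D1:**
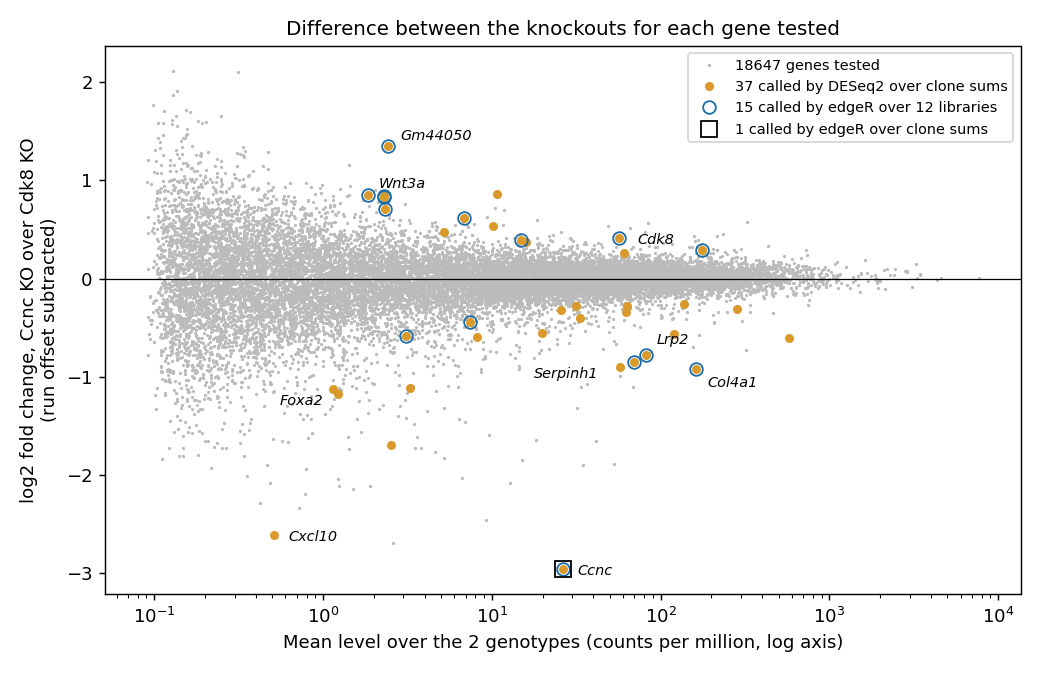
Difference between the knockouts for each gene tested, with the mean level over both genotypes on the x axis (CPM, log scale) and the log2 fold change of Ccnc KO over Cdk8 KO after the run offset on the y axis; marks show the 37 genes called by DESeq2, the 15 called by edgeR over 12 libraries and the 1 called over clone sums. Ccnc, at -2.96, lies far from the band that holds most genes, and the band narrows as the level rises.

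Ccnc (chr4:21727701-21759922, plus strand), which encodes cyclin C, was read at 5.14, 7.11 and 4.93 CPM in clones D1, G2 and H5 and at 48.3, 45.9 and 47.2 CPM in clones B9, H4 and C8. The Cdk8 KO clones lay at the level of the WT libraries (44.3 CPM in the Ccnc multiplex and 46.6 CPM in the Cdk8 multiplex), with log2 ratios to WT of 0.05, -0.03 and 0.02. The difference was -2.96 (SE 0.139, adjusted p = 0.000573 in edgeR's test), and was -2.84 over the DMSO libraries and -3.08 over the ATRi libraries.

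Cdk8 (chr5:146231230-146302874, plus strand), which encodes the kinase, remained well detected in its own knockout, at 55.0, 56.8 and 58.1 CPM in B9, H4 and C8 against 64.7, 65.8 and 65.9 CPM in D1, G2 and H5. The clones did not overlap (7.95% of all genes in that direction). Relative to the WT reads of the same multiplex, the log2 ratios were -0.44, -0.39 and -0.36 in the Cdk8 KO and -0.16, -0.13 and -0.13 in the Ccnc KO. The difference of 0.26 (SE 0.0467) passed in DESeq2 (adjusted p = 0.00668, or 0.0115 without H4) but not in edgeR's test of clone sums (adjusted p = 0.518). A cut in the coding sequence need not lower the mRNA. These levels therefore check the label of the Cdk8 KO clones less closely than Ccnc does that of the Ccnc KO clones. The paper itself checked CDK8 protein in its mESC knockouts by immunoblot and states that its KO clones were genotyped.

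The other module genes were compared next, because cyclin C serves both kinases. Cdk19, the paralogue, was read at 12.2, 12.8 and 12.3 CPM in the Ccnc KO clones and 12.7, 12.97 and 12.3 CPM in the Cdk8 KO clones. Its difference was 0.08 with a 95% interval of -0.09 to 0.26, and all clones lay between -0.21 and -0.04 of WT on the log2 scale. Med12, the kinase activator, differed by -0.04 (interval -0.23 to 0.16), Med13 by -0.06 (-0.21 to 0.08) and Med13l by -0.09 (-0.20 to 0.03). Each of these intervals lay within 1.5-fold, also in the joint fit. Med12 shares exons on its strand with Gm21986, so its count is less certain. The paralogue Med12l, read between 1.94 and 3.05 CPM, had the widest interval of the uncut genes, -0.94 to -0.13 around -0.53, and did not pass adjustment. In the joint fit its interval was -1.095 to 0.017. Its difference was -0.15 with no run offset and -0.35 with the offset from all 4 WT libraries. Of the 7 module genes, edgeR called 1, Ccnc (0.00536% of all genes), and DESeq2 called 2, Ccnc and Cdk8 (0.211%). These are the genes that were cut.

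**Figure D2:**
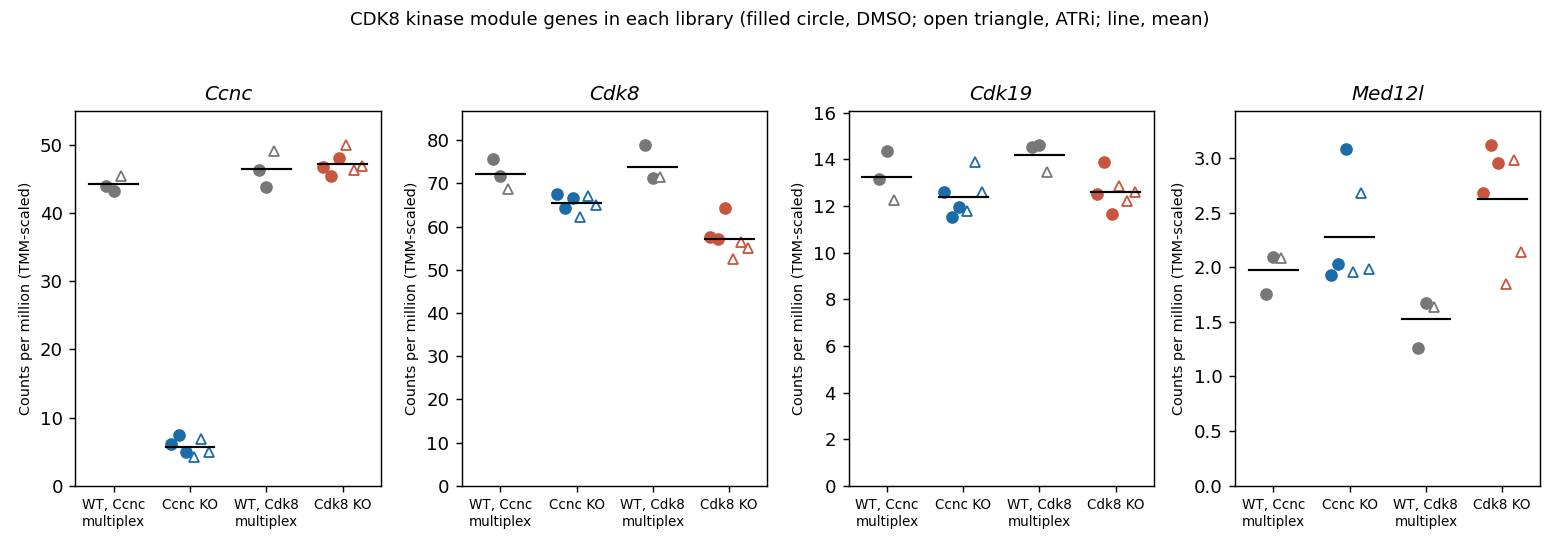
Level (CPM, y axis from 0) of Ccnc, Cdk8, Cdk19 and Med12l in each library, grouped as WT and knockout of each multiplex, with filled circles for DMSO, open triangles for ATRi and a line at the group mean; the excluded WT library is not drawn. The Ccnc KO libraries sit between 4.21 and 7.41 CPM for Ccnc against 45.4 to 49.97 CPM in the Cdk8 KO, whereas for Cdk19 the libraries of both knockouts mix.

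When the 12 libraries were fitted one by one with treatment as covariate, 15 of 16851 genes (0.0890%) passed, 6 lower (0.0356%) and 9 higher (0.0534%) in Ccnc KO. This fit counts the DMSO and ATRi libraries of a clone as independent, although they come from 1 cell line, and its p-values are therefore too small. DESeq2 on the clone sums called 37 of 17562 genes (0.211%), 23 lower (0.131%) and 14 higher (0.0797%), and these held all 15. Without H4 the first fit called 11 genes (0.0642%), of which Ccnc, Col4a1 and Mpp3 were among the 15, and DESeq2 called 42 (0.278%), of which 18 were among the 37. With the clone as a random effect in limma voom, Ccnc alone passed. The genes of the next paragraphs, other than the pair with the most reads in a list, were named after their values were seen, and none but Ccnc passed the main test.

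Of the 6 genes that were lower in Ccnc KO over 12 libraries, Ccnc was described above. The collagens Col4a1 and Col4a2 and the receptor gene Lrp2 are described with their groups. The others were Mpp3, which encodes a membrane scaffold protein, and Kif5a, which encodes a kinesin motor. Mpp3 was read at 2.81, 2.87 and 2.91 CPM in Ccnc KO and 3.41, 3.07 and 3.68 CPM in Cdk8 KO, a difference of -0.59 after a run offset of 0.35. Kif5a was read at 6.48, 6.67 and 7.02 CPM in Ccnc KO and 8.37, 8.43 and 7.72 CPM in Cdk8 KO, a difference of -0.44. Both had non-overlapping clones (9.06% of all genes in that direction), which adds no separate support, since a fit of the same clones picked them. Without H4, Mpp3 still passed in the fit of single libraries (adjusted p = 0.0376 in edgeR's test) and in DESeq2 (0.0127), and Kif5a passed in neither (0.0652 and 0.0631).

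Of the 9 genes that were higher in Ccnc KO over 12 libraries, Wnt3a, a Wnt ligand, was read at 2.48, 2.09 and 2.30 CPM in D1, G2 and H5 and 1.48, 1.54 and 1.23 CPM in B9, H4 and C8 (difference 0.85, SE 0.160). Gjb5, a gap junction gene, was read at 16.5, 18.3 and 16.1 CPM against 13.3, 12.4 and 12.7 CPM (0.39, SE 0.0826). Mylpf, a myosin regulatory light chain gene, had the smallest standard error of the 15, at 196, 197 and 193 CPM against 159, 154 and 155 CPM (0.29, SE 0.0400). The joint fit gave larger standard errors of 0.241, 0.199 and 0.115 for Wnt3a, Gjb5 and Mylpf. Its interval held 0 for Gjb5 (-0.05 to 0.81) but not for Wnt3a or Mylpf. In these 3 genes every Ccnc KO clone lay above every Cdk8 KO clone, as for 7.95% of all genes. They were picked by a fit of the same clones, so this adds no separate support. The tetraspanin gene Tspan1 differed by 0.84, Nkain4, whose product binds the sodium pump, by 0.83, and Sh3bp1, which encodes a GTPase-activating protein, by 0.62. Sh3bp1 shares exons on its strand with Gm49510. Gm11470 (0.71) and Gm44050 (1.35) are processed pseudogenes, whose reads can be shared with near-identical copies. Gm44050 was read at 2.63, 2.77 and 2.88 CPM against 2.42, 2.09 and 1.75 CPM, and most of its difference came from a run offset of -0.95. Without H4 none of these 8 genes passed in the fit of single libraries, where Wnt3a had an adjusted p of 0.0634 and Mylpf of 0.0536 in edgeR's test. DESeq2 without H4 still called Wnt3a (adjusted p = 0.0124), Mylpf (0.000325), Nkain4 (0.0127), Sh3bp1 (0.00309) and Gm44050 (8.81e-08), but not Gjb5 (0.0510), Tspan1 (0.0526) or Gm11470 (0.0526).

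Basement membrane genes were lower in Ccnc KO than in Cdk8 KO for most of the list. Collagen IV and laminins form the sheet beneath epithelia, and in the early embryo primitive endoderm makes much of it. Of 14 genes, all tested, 10 were lower in every Ccnc KO clone than in every Cdk8 KO clone (9.06% of all genes were), and 12 had an unadjusted p under 0.05 in that direction (5.08% of all genes). None was called by edgeR, and 4 were called by DESeq2 (0.131% of all genes in that direction). The median log2 fold change was -0.50 against -0.01 over all genes tested. It was -0.49 over the DMSO libraries, -0.44 over the ATRi libraries and -0.38 without H4, where 11 of 14 had an unadjusted p under 0.05 (4.83% of all genes in that direction). Without H4, DESeq2 called none of those 4 (Col4a1, Col4a2, Serpinh1 and Lamb1) and called Lama1 in their place. In the joint fit, 6 of 14 had an unadjusted p under 0.05 (2.20% of all genes in either direction). Each count and median is a description, since the list was chosen with earlier results known.

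Col4a1 (chr8:11198423-11312826, minus strand) encodes a collagen IV chain. It was read at 87.6, 137 and 128 CPM in D1, G2 and H5, at 181, 197 and 246 CPM in B9, H4 and C8, and at 43.5 and 40.5 CPM in WT in the Ccnc and Cdk8 multiplexes. All clones lay above WT, the Cdk8 KO clones farther than the Ccnc KO clones, and the clones of the genotypes did not overlap. The difference was -0.92 (SE 0.170, 95% interval -1.32 to -0.53), with an adjusted p of 0.518 in edgeR's test of clone sums and 7.11e-05 in DESeq2. Without H4 the DESeq2 call was lost (adjusted p = 0.109), whereas that over single libraries was kept (0.0410). Under DMSO alone the libraries read 72.3, 130 and 132 CPM in Ccnc KO and 184, 194 and 223 CPM in Cdk8 KO, and under ATRi 102, 143 and 124 CPM and 179, 200 and 257 CPM. The order of genotypes was thus the same in both treatments.

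Col4a2, its partner chain, begins beside it on the opposite strand (chr8:11312805-11449287) and was counted by strand. It was read at 38.4, 58.0 and 50.7 CPM in Ccnc KO and 72.6, 87.7 and 108 CPM in Cdk8 KO (-0.85, SE 0.174). Serpinh1, the collagen chaperone, was read at 34.6, 47.7 and 40.6 CPM and 50.2, 90.1 and 82.9 CPM (-0.90, SE 0.212). Lamb1, a laminin beta chain gene, was read at 89.2, 98.1 and 106 CPM and 115, 156 and 161 CPM (-0.56, SE 0.126). In these 3 genes, as in Col4a1, the clone nearest to the Ccnc KO range was B9. The prolyl hydroxylase genes of collagen, P4ha2 and P4ha1, differed by -0.49 and -0.24. Sparc, which encodes a collagen-binding protein and had the most reads of the list, was at 429, 489 and 431 CPM and 476, 409 and 492 CPM (-0.02, interval -0.21 to 0.16). Nid1 (-0.16, interval -0.45 to 0.13) was the other gene with an unadjusted p above 0.05.

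**Figure D3:**
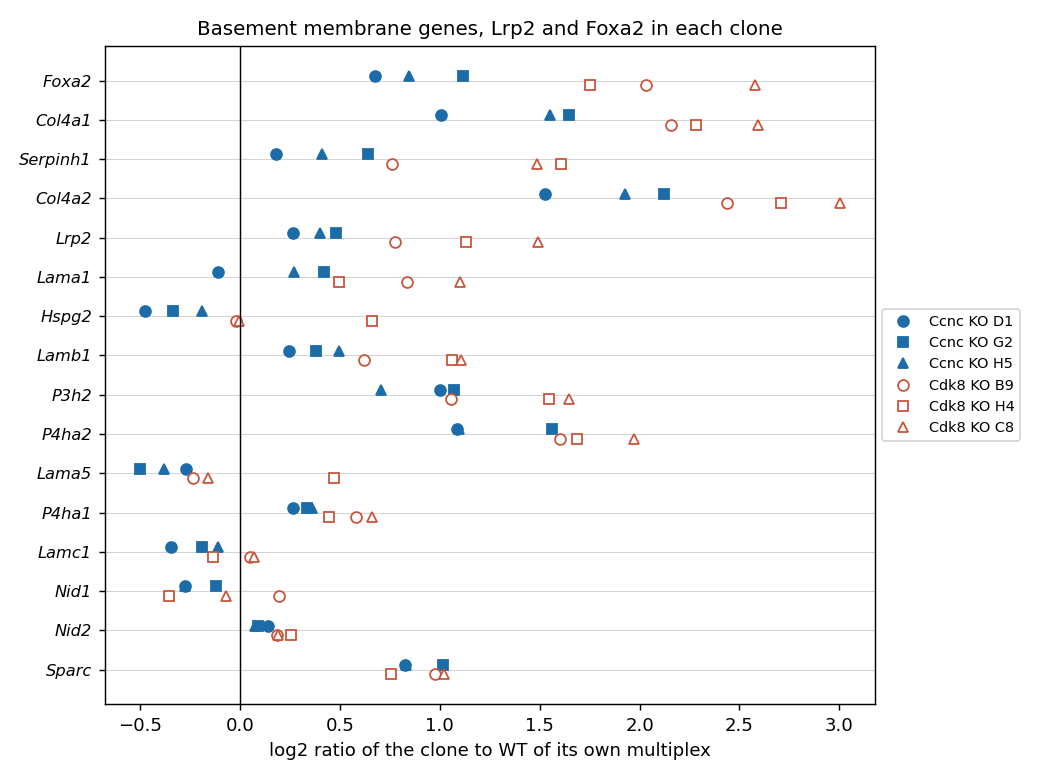
The 14 basement membrane genes with Lrp2 and Foxa2 in each clone (filled, Ccnc KO; open, Cdk8 KO), as log2 ratios to the WT reads of the same multiplex. Col4a1, Col4a2 and Serpinh1 have Cdk8 KO clones to the right of all Ccnc KO clones with differences of -0.92, -0.85 and -0.90, while the clones mix for Sparc and Nid1.

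The genes that mark endoderm in the embryo were examined next. Of 10 primitive endoderm transcription factor genes, counted with the receptor Pdgfra, none was called by edgeR and 1 was called lower in Ccnc KO by DESeq2 (0.131% of all genes). At an unadjusted p under 0.05 there were 2, both lower in Ccnc KO (5.08% of all genes). The median difference was -0.50. Over this list the median log2 ratio to WT was 1.07, 1.39 and 1.13 in D1, G2 and H5 and 1.89, 1.43 and 2.37 in B9, H4 and C8, so that H4 lay nearest to the Ccnc KO clones. Without H4, 7 of the 10 had an unadjusted p under 0.05 (4.83% of all genes in that direction) and the median was -0.62. DESeq2 then called Foxa2, Hnf4a and Pdgfra (0.278% of all genes in either direction). In the joint fit none of the 10 had an unadjusted p under 0.05. None of the 10 intervals lay within 1.5-fold.

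Foxa2, the pioneer factor called by DESeq2, was read at only 0.89, 1.21 and 1.01 CPM in Ccnc KO and 1.28, 1.05 and 1.89 CPM in Cdk8 KO. Those ranges overlap before the run offset, which was 0.74 at this gene, and part after it, for a difference of -1.17 (SE 0.250) that is -0.43 with no offset. Gata4 was read at 6.53, 7.99 and 5.85 CPM and 8.60, 7.27 and 12.1 CPM (-0.51, interval -0.98 to -0.04, or -1.17 to 0.13 in the joint fit). Gata6, with the most reads of the list, was at 7.70, 8.50 and 8.07 CPM and 10.3, 6.69 and 11.5 CPM (-0.18, interval -0.61 to 0.26). For both GATA factors the clones overlapped, with H4 inside or below the Ccnc KO range.

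The visceral endoderm list of endocytic receptors and secreted proteins had 14 of 18 genes tested, with a median of -0.54 (-0.63 without H4). None was called by edgeR and 1 was called by DESeq2 (0.131% of all genes in that direction). At an unadjusted p under 0.05 there were 3, all lower in Ccnc KO (5.08% of all genes), or 6 without H4 (4.83%). In the joint fit 1 of 14 had an unadjusted p under 0.05 (2.20% of all genes in either direction). The DESeq2 call, Lrp2, was lost without H4 (adjusted p = 0.252), and none of the list was then called by DESeq2. Lrp2 (chr2:69424340-69586065, minus strand) encodes megalin, a receptor that takes up proteins and vitamins. It was read at 54.5, 63.4 and 60.0 CPM in Ccnc KO, at 80.1, 103 and 132 CPM in Cdk8 KO and at 45.3 and 46.7 CPM in WT, a difference of -0.78 (SE 0.160, interval -1.15 to -0.41). Its ranges did not overlap (9.06% of all genes in that direction). Cubn, which encodes cubilin, the partner of megalin, was read at 19.7, 27.9 and 16.8 CPM and 38.1, 24.2 and 60.6 CPM (-0.94, interval -1.68 to -0.21), and here H4 fell inside the Ccnc KO range. The joint fit gave Cubn an interval of -1.92 to 0.04. Apoe, an apolipoprotein gene with the most reads of the list, differed by 0.10 (interval -0.20 to 0.39). Summed over 6 primitive endoderm markers, the level was 23.9 to 31.2 CPM in Ccnc KO, 25.6 to 47.9 CPM in Cdk8 KO and 10.1 to 15.3 CPM in WT, with no marker at 0. In bulk RNA, fewer cells of a type and less RNA per cell cannot be told apart, and the part of such cells in the differences above was not tested.

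Several group medians shrank when H4 was left out. Actin and serum response factor targets, genes of the contractile cytoskeleton, had a median of -0.58 over 21 genes, none called, and 0.00 without H4. Acta2, smooth muscle actin, was read at 17.4, 15.9 and 33.7 CPM in D1, G2 and H5 and 4.43, 203 and 45.3 CPM in B9, H4 and C8. The Cdk8 KO clones thus lay on both sides of the Ccnc KO clones. The median of YAP-TEAD targets went from -0.44 to -0.12 without H4, that of 6 fibroblast genes from -0.69 to 0.04, that of MHC class I genes from -0.29 to 0.17 and that of p53 targets from -0.16 to 0.07. The simple keratins of the trophectoderm list behaved alike. Krt8 was read at 16.4, 17.4 and 30.6 CPM and 17.3, 137 and 30.8 CPM, and its difference of -1.66 was -0.30 without H4. The 7 fibroblast markers summed to 6.50 to 11.1 CPM in Ccnc KO and 7.22 to 23.2 CPM in Cdk8 KO. The 4 neuroectoderm markers, Sox1, Pax6, Nes and Hes5, summed to 32.7, 36.5 and 39.3 CPM in D1, G2 and H5, to 35.0, 105 and 50.6 CPM in B9, H4 and C8 and to 47.3 to 53.7 CPM in WT libraries. H4 thus had the highest sum of both marker lists. The 10 neuroectoderm genes tested went otherwise, with a median log2 ratio to WT of -0.37 in H4. That median was -0.72, -0.32 and -0.30 in D1, G2 and H5 and -0.41 and -0.42 in B9 and C8. The part of cells of either type in the differences of H4 was not tested.

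Naive pluripotency genes had a median of 0.17 over 16 genes, none called, and 0.03 without H4. Esrrb was read at 578, 562 and 514 CPM in Ccnc KO and 574, 382 and 497 CPM in Cdk8 KO, with H4 the lowest. Tdh, a threonine dehydrogenase gene with the most reads of the list, was at 677, 680 and 651 CPM and 695, 504 and 660 CPM (0.11, interval -0.14 to 0.36). Among the core factors, Pou5f1 was read at 1305, 1371 and 1304 CPM and 1229, 1144 and 1185 CPM (0.11, interval 0.00 to 0.23), and Utf1 at 629, 588 and 533 CPM and 534, 467 and 472 CPM (0.23, interval 0.05 to 0.42). In the joint fit the intervals were -0.07 to 0.28 for Pou5f1 and -0.05 to 0.50 for Utf1.

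**Figure D4:**
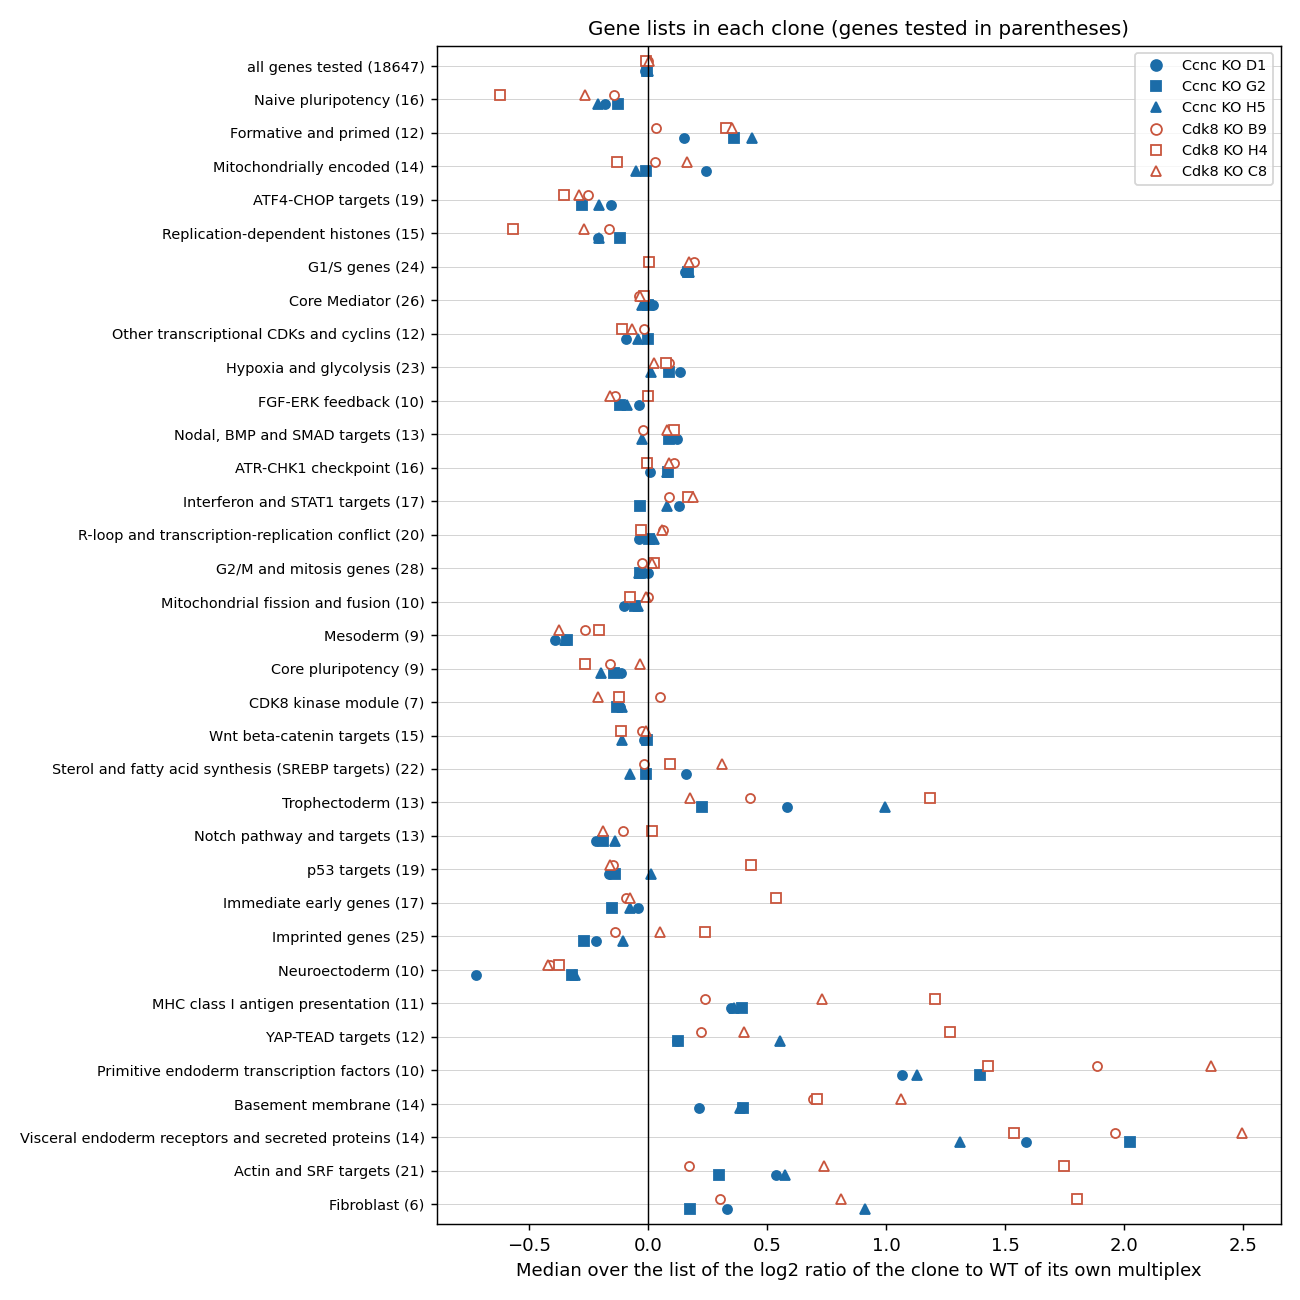
Median over each gene list of the log2 ratio of a clone to the WT reads of its own multiplex, with the number of genes tested in parentheses. Clone H4 (open squares) is the rightmost point for actin and SRF, YAP-TEAD, fibroblast and MHC class I lists and the leftmost for naive pluripotency, whereas in the basement membrane list all Cdk8 KO clones lie to the right of all Ccnc KO clones.

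Other groups had narrow intervals around small differences, as most genes above 10 CPM did. All 26 core Mediator genes tested had a 95% interval within 1.5-fold, against 60.5% of all genes and 94.7% of those above 10 CPM. Their median was 0.05, with single differences from -0.18 (Med14) to 0.20 (Med29). The 12 genes of the other transcriptional CDKs and cyclins also lay within 1.5-fold, with a median of 0.03. So did the 24 G1/S genes (0.05), the 28 G2/M and mitosis genes (-0.03) and the 16 ATR-CHK1 checkpoint genes (-0.02). In the list of R-loop and transcription-replication conflict genes it was 19 of 20 (-0.03). The joint fit gave the same counts except for the G2/M list, at 27 of 28 (91.6% of the genes above 10 CPM lay within 1.5-fold in it). Of the checkpoint genes, Tipin, which encodes a fork protection protein, was read at 263, 285 and 287 CPM in Ccnc KO and 297, 259 and 293 CPM in Cdk8 KO (0.02, interval -0.12 to 0.17). Topbp1, which encodes an activator of ATR, was read at 243, 246 and 256 CPM and 267, 259 and 262 CPM (-0.05, interval -0.14 to 0.05). Chek1, the effector kinase gene, was at 98.4, 110 and 111 CPM and 115, 94.3 and 118 CPM (0.01, interval -0.19 to 0.22). Cxcl10, an interferon target, was the only interferon gene called by DESeq2, at 0.19, 0.11 and 0.17 CPM and 0.25, 1.72 and 0.62 CPM, and its difference went from -2.62 to -1.64 without H4, where DESeq2 gave it no adjusted p.

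The run offset decided the calls at a few genes. With no offset, 4 genes passed, Ccnc and the mitochondrial genes mt-Co2, mt-Co3 and mt-Atp6. mt-Co2 was read at 7.17, 6.28 and 5.74 CPM in the Ccnc KO clones and 1.84, 1.39 and 1.47 CPM in the Cdk8 KO clones, but the same WT libraries were read at 5.93 and 1.91 CPM in the respective multiplexes. Its difference was 2.03 with no offset and 0.44 after it. mt-Co1, the mitochondrial gene with the most reads, was read at 5146, 4183 and 4165 CPM and 4600, 4316 and 4938 CPM (0.00, interval -0.22 to 0.23). Rpl36a, a ribosomal protein gene, turned direction with the offset, from 0.31 without it to -0.60 with it.

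Whether ATRi acted differently in the knockouts was tested as the difference of the ATRi responses, with the clone as a block, so that the run cancels. No gene of 17630 (0%) passed in edgeR's quasi-likelihood test, where 1146 (6.50%) had an unadjusted p under 0.05. None passed in limma voom, and DESeq2 called 4 of 7376 (0.0542%). These were Kmt2d, a histone methyltransferase gene, Dst, a cytoskeletal linker gene, and the processed pseudogenes Gm9625 and Gm8648. Kmt2d had log2 responses to ATRi of 0.40, 0.69 and 0.27 in D1, G2 and H5 and -0.22, -0.07 and 0.10 in B9, H4 and C8 (response difference 0.53, SE 0.110). WT replicate 1 responded by 0.14 and 0.26 in the Ccnc and Cdk8 multiplexes. For Dst the responses were 0.23, 0.72 and 0.43 and -0.08, -0.02 and 0.08 (0.48, SE 0.104). Both are very long transcripts, with 19931 and 41155 bases of exons.

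Of the gene lists, the mitochondrially encoded genes had the largest median response difference, -0.52, with 9 of 14 genes at an unadjusted p under 0.05 (6.50% of all genes) and no adjusted p below 0.76. When all genes with 1 count or more in a library were tested, edgeR's test called 181 genes (0.591%). Of the mitochondrially encoded list, 7 were among these, all with a lower response in Ccnc KO, at -0.31 for mt-Rnr1 and -0.52 to -0.63 for mt-Cytb, mt-Co1, mt-Nd1, mt-Nd2, mt-Nd4 and mt-Nd5. None of the 7 passed in the main fit or in limma voom, so these calls depended on the filter. The list's median response was -0.83, -0.14 and 0.03 in D1, G2 and H5. In B9, H4 and C8 it was 0.02, 0.22 and 0.51. The basement membrane genes Hspg2 (0.42) and Lama5 (0.33), Kmt2d and Dst were among the 181 too. mt-Co1 responded by -0.83, -0.16 and 0.01 in D1, G2 and H5 and by 0.07, 0.24 and 0.40 in B9, H4 and C8, so D1 was the lowest of the Ccnc KO clones. The kinase module list had a median response difference of 0.13, Ccnc itself of -0.23 and Cdk8 of 0.10, and the basement membrane list of 0.01. The G1/S, G2/M and ATR-CHK1 lists had medians of -0.02, -0.06 and -0.02.

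The distance between 2 clones was measured as the root mean square log2 difference over the 9090 genes above 10 CPM. Each clone was first set against WT of its own multiplex. Between genotypes a distance therefore includes the counting error of the WT reads, which cancels within a genotype. Clones of the Ccnc KO lay 0.113 to 0.169 apart and clones of the Cdk8 KO 0.172 to 0.318 apart. Clones of different genotype lay 0.119 to 0.302 apart, or 0.119 to 0.199 without H4. The closest of these pairs was G2 and B9, at 0.119, nearer to each other than B9 was to either clone of its own genotype (0.318 to H4 and 0.172 to C8). Every pair with H4 was at 0.242 or more.

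**Figure D5:**
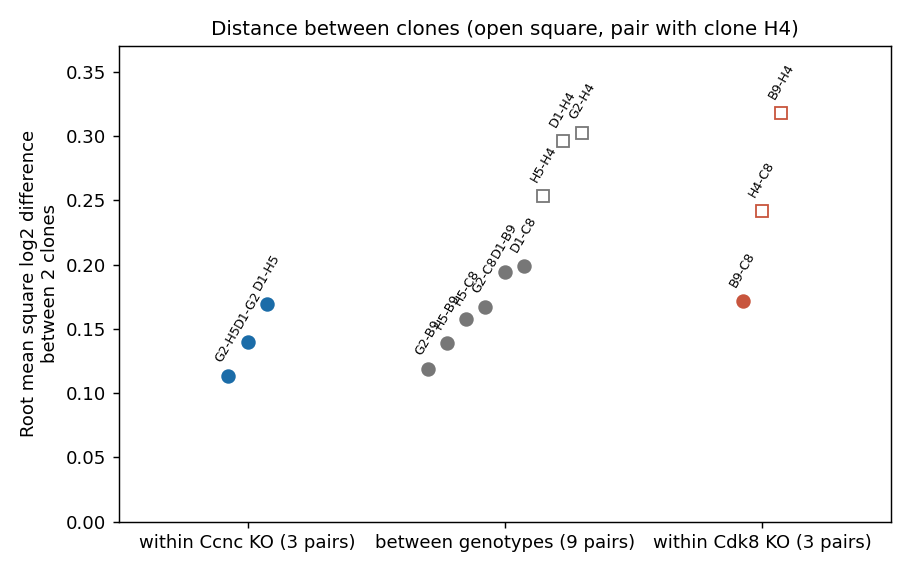
Root mean square log2 difference over genes above 10 CPM for each pair of clones, grouped as pairs within Ccnc KO, within Cdk8 KO and between genotypes. Pairs between the genotypes that leave out H4 run from 0.119 to 0.199, a range that meets those within each genotype. Only pairs between genotypes include the counting error of the WT reads.

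A small trend with transcript length ran through the comparison. Above 10 CPM the median difference was 0.07 for genes with under 1000 bases of exons and -0.05 for those over 8000, and the Spearman correlation across the 9090 genes, which are not independent, was -0.348. Against WT the correlation was -0.24, -0.26 and -0.16 in D1, G2 and H5 and 0.01, 0.05 and -0.08 in B9, H4 and C8. Removing a smooth trend with length and GC content left 1 called gene, Ccnc, and moved the basement membrane median from -0.50 to -0.48, Lrp2 from -0.78 to -0.70 and Dst from -0.37 to -0.26.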

How the data were processed

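Poly(A) RNA was sequenced from mESCs of 3 genotypes. The authors trimmed reads with Trimmomatic 0.38, aligned them to GRCm38.p6 with HISAT2 2.1.0 and counted them per gene and strand with featureCounts 2.0.1, leaving out reads marked as duplicates. They deposited these counts per lane and multiplex, without normalization. Tables of rlog values from DESeq2 were not used here. All 55536 gene identifiers matched the annotation.

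Here lanes were summed into libraries (30899823 to 67274049 counts), and the DMSO and ATRi libraries of a clone into 1 column. Counts were fitted with edgeR 4.0.16 (R 4.3.3): quasi-likelihood test, TMM, filterByExpr, and an offset per gene from the summed WT counts of both multiplexes with a prior count of 10. The ATRi library of WT replicate 2, which the study excluded, did not enter the offset. Adjusted p-values are Benjamini-Hochberg over all genes tested, with calls under 0.05. The ATRi response was tested over 12 libraries with the clone as a block. Libraries of a clone pair because they are 1 cell line. The correlation of their deviations from the group means was 0.24, -0.01 and 0.30 in D1, G2 and H5 and 0.86, 0.91 and 0.56 in B9, H4 and C8. Log2 ratios of a clone to WT used a prior count of 2. Alternatives were DESeq2 1.42.0, limma 3.58.1 (voom with the clone as a random effect), other filters, scalings and offsets, each treatment alone and each clone left out. The removal of a length and GC trend (4 spline degrees of freedom) and the fits without H4 over 12 libraries and in DESeq2 were chosen after seeing the data. The fits were tested on simulated data.

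The comparison and the gene lists were chosen with earlier results of these data known. Genes were named as module members, as called genes, or, where no list member was called, as the 2 members with the largest mean CPM. Others were chosen after their values were seen. Lists of 2-cell-like and sex chromosome genes had 0 genes tested. Some symbols (233 genes) are shared by several identifiers and were not named. A further called gene is not reported here.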

Additional observations from a re-analysis of the deposited data

Results flagged for a closer look

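The ATRi response of Itpr1, which encodes a calcium channel of the endoplasmic reticulum, had opposite directions in the knockouts. It was 0.12, 0.27 and 0.02 on the log2 scale in D1, G2 and H5 and -0.19, -0.11 and -0.06 in B9, H4 and C8, a response difference of 0.27 (SE 0.0838). It was 1 of 46 named genes examined that had one direction in every clone of a genotype and the opposite in every clone of the other. How many of all genes tested do so was not counted, and the response in H5 was only 0.02. The difference itself had an unadjusted p of 0.0068 and an adjusted p of 0.760 in edgeR's test with the clone as a block. The same WT library, replicate 1, responded by -0.13 and -0.16 in the Ccnc and Cdk8 multiplexes.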

How the results depend on the processing

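Ccnc passed in every genotype fit that was run, and the count of called genes was 1 except in these: 15 over 12 libraries with treatment as covariate, 11 in that fit without H4, 37 in DESeq2, 42 in DESeq2 without H4 (3 of the 15 and 18 of the 37 kept), 4 with no run offset and 2 with all genes with 1 count or more in a clone tested. Past 2-fold the counts were 1 in the main fit and 2, 5, 7, 9, 4 and 2 in these. Leaving out each clone gave 1 to 1 calls, with 904 to 3200 genes at an unadjusted p under 0.05. The replicate block (limma voom, clone as random effect) gave 1. For the response difference, paired by clone, leaving out each clone gave 0 to 34 calls, the 34 without H5. DESeq2 gave 4, testing all genes with 1 count or more in a library 181, and the fit with no replicate block 0. The run effect of 684 calls became 1 with no replicate block. Rpl36a turned from -0.60 to 0.31 with no run offset.

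Of the other values, 961 of the named genes' alternatives kept direction and side of the threshold, 71 came to pass it and 23 turned sign, at Cdk19, Med12, Med13, Med13l, Kmt2d, Gm8648 and Gm9625, each with an unadjusted p above 0.05 in the reported fit. Of the list medians' alternatives, 30 moved past the spread between clones and 752 did not. The run offset and the genotype are separated only by the WT reads, whose own error the standard errors leave out. With 3 clones a genotype, 1 of them (H4) far from the others, the interval reached past 2-fold for all but 80.9% of genes, or all but 69.1% in the joint fit with WT, whose 410 genes at an unadjusted p under 0.05 stand against 1745.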
